A study of Mus musculus with 16 samples.

Results

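The genes of cholesterol synthesis and its control were followed in the palate of mouse embryos that lacked Erk2 in neural crest cells. The group holds 29 named genes: 20 enzymes of synthesis, 4 genes that control the transcription factor SREBP2, and 5 genes of cholesterol transport, efflux and storage. A gene was included through probe sets that the platform annotation gave to it alone, and the probe set brightest on average stood for the gene. Of the 29 genes, 27 had such a probe set, among 18194 genes in all. All 27 passed the floor on low values, among 11116 genes tested. Acat2 and Soat1 are not analysed here, nor are other genes of the pathway outside the list.

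The study compared 4 groups of C57BL/6J embryos on 16 one-colour arrays. Mutants were Erk2 fl/fl; Wnt1-Cre, with 3 arrays at E13.5 and 5 at E14.5. Controls were Erk2 fl/fl without Cre, called wild-type in the sample titles, again with 3 arrays at E13.5 and 5 at E14.5. All embryos thus carried the floxed alleles, and Wnt1-Cre acts in the neural crest lineage, which gives rise to palatal mesenchyme but not to the oral epithelium. The sample labels name palate mesenchyme as the tissue, whereas the series design speaks of primary palatal mesenchymal cells. Nothing says how many embryos one array holds, so the p-values cover the spread between arrays and no more. At E14.5, replicates 1 and 2 of each genotype were labelled batch 1 and replicates 3, 4 and 5 batch 2, while the E13.5 arrays had no batch label. The stated aim was to examine cell metabolism in the palatal mesenchyme under disturbed ERK signalling.

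Cells build cholesterol from acetyl-CoA through the mevalonate pathway, which yields isoprenoids, then squalene, lanosterol and finally cholesterol. When sterols are scarce, SCAP carries SREBP2 from the endoplasmic reticulum to the Golgi, where it is cut and released to switch on the genes of synthesis, and INSIG1 and INSIG2 hold SCAP back when sterols are plentiful. Cholesterol is also joined to Hedgehog ligands, and loss of DHCR7, the last enzyme of one branch of the pathway, causes Smith-Lemli-Opitz syndrome, in which cleft palate is common. Mice that lack both Insig genes have midline facial clefts.

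The promoters shown belong to the genes on which the results turn: an early enzyme of the pathway, an INSIG gene and the gene of SREBP2 itself. Each is the RefSeq window of 250 bases before to 50 bases after the start in build GRCm38.p6, written 5′ to 3′ on the gene's strand. Capitals mark a core sterol regulatory element (TCACNCCAC), which SREBP2 binds, and the NF-Y box (CCAAT), whose factor acts beside SREBP2, on either strand. The windows lie at chr13:119690101-119690400 on the plus strand for Hmgcs1, at chr1:121332540-121332839 on the minus strand for Insig2, and at chr15:82147019-82147318 on the plus strand for Srebf2.
Hmgcs1: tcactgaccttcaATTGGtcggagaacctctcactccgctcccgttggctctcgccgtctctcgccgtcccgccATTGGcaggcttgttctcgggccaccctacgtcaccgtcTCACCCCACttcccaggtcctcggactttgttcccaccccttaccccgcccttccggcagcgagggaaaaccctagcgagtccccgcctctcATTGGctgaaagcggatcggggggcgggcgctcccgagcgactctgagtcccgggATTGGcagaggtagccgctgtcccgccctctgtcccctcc
Insig2: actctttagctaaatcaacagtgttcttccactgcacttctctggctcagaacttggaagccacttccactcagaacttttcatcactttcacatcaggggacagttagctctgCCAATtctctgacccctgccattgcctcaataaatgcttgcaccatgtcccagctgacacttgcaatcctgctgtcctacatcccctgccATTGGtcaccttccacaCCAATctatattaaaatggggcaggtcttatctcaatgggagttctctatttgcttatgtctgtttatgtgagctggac
Srebf2: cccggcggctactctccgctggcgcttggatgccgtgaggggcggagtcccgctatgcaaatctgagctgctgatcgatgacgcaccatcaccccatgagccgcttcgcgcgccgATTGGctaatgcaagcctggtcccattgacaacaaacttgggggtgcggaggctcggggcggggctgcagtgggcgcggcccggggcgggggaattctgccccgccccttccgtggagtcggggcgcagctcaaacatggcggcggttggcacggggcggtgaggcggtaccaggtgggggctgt
Hmgcs1 held the core element once, and 4 NF-Y boxes, all on the minus strand. Insig2 held 3 NF-Y boxes and Srebf2 held 1. The table gave promoters for 22 of the 27 genes. Of these 22, 1 gene (Hmgcs1) held the core element in any of its windows and 20 held an NF-Y box, against 1.36% and 43% of the 9000 tested genes with a window. The core element of Hmgcs1 overlapped no NF-Y box. Insig2 had 3 windows in the table, and those not shown held neither motif. A match describes the window only.

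**Figure D1:**
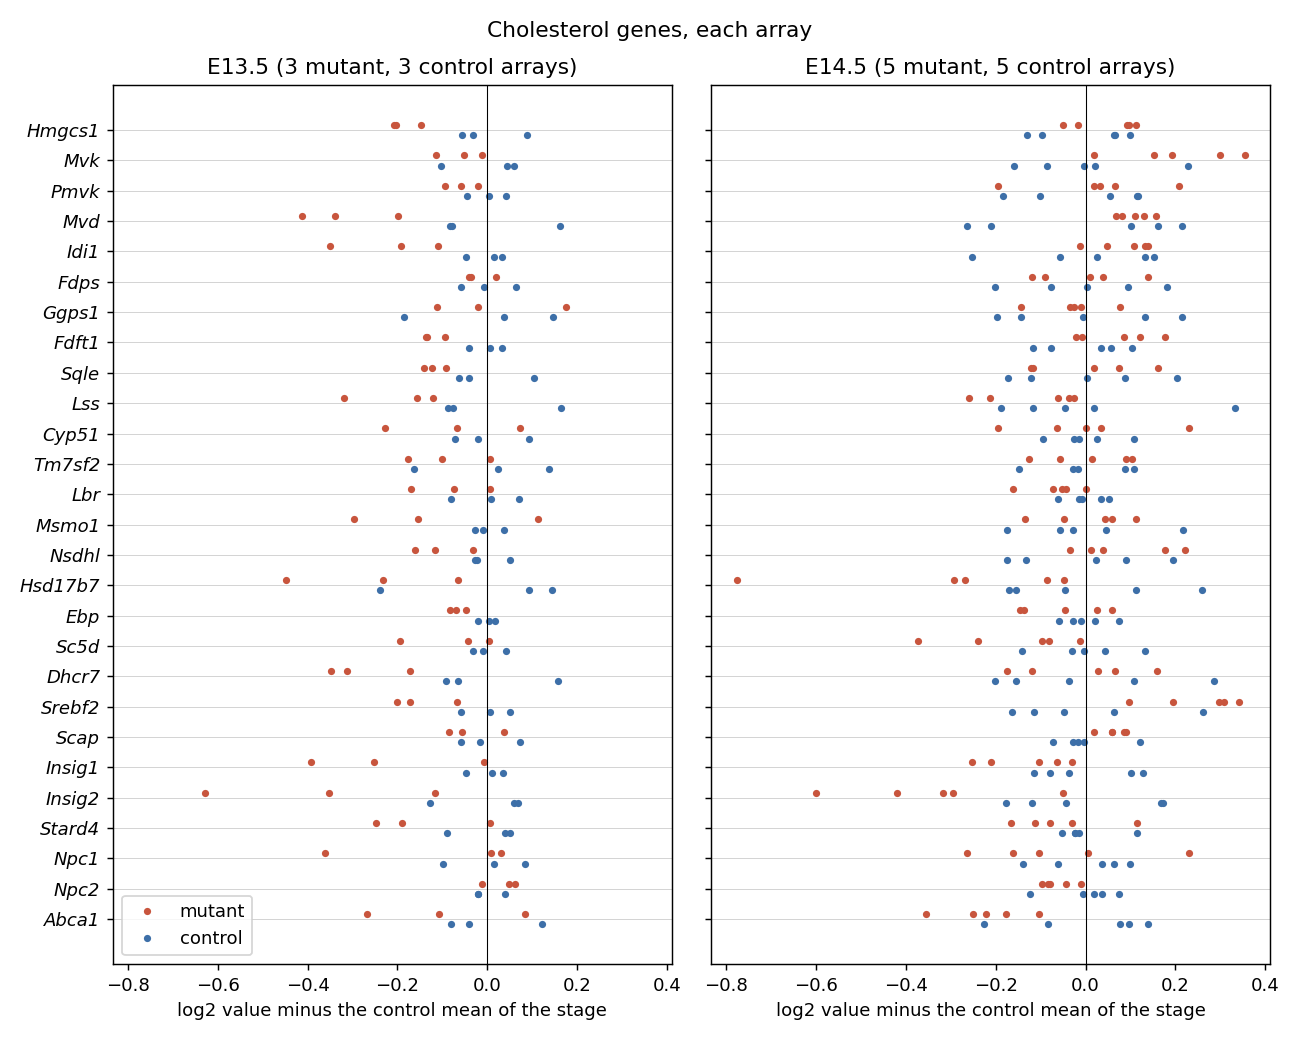
Log2 expression of the 27 genes on each array, less the control mean of the stage (horizontal axis, log2), with E13.5 on the left and E14.5 on the right. Red points are mutant arrays and blue points control arrays. At E13.5 most red points lie left of the blue ones, with 10 genes fully apart, and at E14.5 the colours overlap in all 27 genes.

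The enzymes of the mevalonate pathway come first. HMGCS1 condenses acetyl-CoA with acetoacetyl-CoA into HMG-CoA, the precursor of mevalonate. At E13.5 Hmgcs1 stood at log2 10.49, 10.43 and 10.43 in mutants, against 10.58, 10.60 and 10.72 in controls. All mutant arrays lay below all control arrays. The difference was -0.19 on the log2 scale (SE 0.05, limma, n = 3 and 3, adjusted p = 0.227), a fold of 0.879, and it did not pass the threshold of an adjusted p under 0.05. At E14.5 the mutants held 9.90, 9.94, 10.04, 10.05 and 10.06, against 9.82, 9.85, 10.02, 10.05 and 10.02 in controls. The genotypes overlapped there, and batch 1 was lower than batch 2 in both.

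MVD, which decarboxylates mevalonate pyrophosphate, showed the same order at E13.5. Mvd was at 5.66, 5.52 and 5.45 in mutants, against 5.78, 5.77 and 6.02 in controls, a difference of -0.32 (SE 0.10, limma, n = 3 and 3, adjusted p = 0.372). At E14.5 it averaged 3.84 ± 0.04 in mutants and 3.74 ± 0.22 in controls (SD, n = 5 each), and the lowest controls were those of batch 1, at 3.47 and 3.53. Its second probe set differed by -0.06 at E13.5 and -0.03 at E14.5, far less than the first at E13.5. IDI1, which isomerises isopentenyl pyrophosphate, was at 8.25, 8.49 and 8.41 in E13.5 mutants, against 8.55, 8.62 and 8.63 in E13.5 controls. The Idi1 arrays were fully apart, with a difference of -0.22 (SE 0.08, limma, n = 3 and 3, adjusted p = 0.432).

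The kinases and the prenyl synthases of the pathway were closer between genotypes at E13.5. Mvk, which phosphorylates mevalonate, and Pmvk, which adds the next phosphate, both differed by -0.06. Fdps, which makes farnesyl pyrophosphate, differed by -0.02, and Ggps1, which extends it to geranylgeranyl pyrophosphate for protein prenylation, by 0.01. At E14.5 Mvk was at 3.80, 4.08, 4.14, 3.97 and 3.93 in mutants, against 3.62, 3.70, 4.01, 3.80 and 3.78 in controls. Its difference of 0.20 (SE 0.07, limma, n = 5 and 5, adjusted p = 0.129) did not pass, and the values lay near the floor of log2 4.

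The squalene and lanosterol steps were lower at E13.5 in all 3 genes, with none passing the test. FDFT1 joins farnesyl units into squalene, and Fdft1 stood at 9.07, 9.11 and 9.07 in mutants, against 9.17, 9.24 and 9.22 in controls. SQLE, a rate-limiting enzyme, oxidises squalene, and Sqle stood at 8.78, 8.76 and 8.81 in mutants, against 8.86, 8.84 and 9.002 in controls. LSS closes the ring to lanosterol, and Lss stood at 6.10, 6.13 and 5.94 in mutants, against 6.18, 6.17 and 6.42 in controls. In each of the 3 genes every mutant array lay below every control array, by differences of -0.12, -0.12 and -0.20 in that order. At E14.5 the same genes differed by 0.07, 0.00 and -0.12, with all arrays mixed.

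From lanosterol to cholesterol, all 9 enzymes had a mutant mean under the control mean at E13.5, from -0.07 for Ebp to -0.28 for Dhcr7. DHCR7 reduces 7-dehydrocholesterol to cholesterol, and Dhcr7 stood at 6.60, 6.77 and 6.63 in mutants, against 6.85, 6.88 and 7.10 in controls, with no overlap. Its difference carried an SE of 0.10 (limma, n = 3 and 3, adjusted p = 0.425). At E14.5 Dhcr7 averaged 5.17 ± 0.14 in mutants and 5.18 ± 0.20 in controls (SD, n = 5 each). Nsdhl, which acts in C4 demethylation, and Ebp, the sterol isomerase, were also fully apart at E13.5, by differences of -0.10 and -0.07. Cyp51, Tm7sf2, Lbr and Msmo1, which remove the C14 methyl group, reduce the C14 double bond (Tm7sf2 and Lbr share this reaction) and oxidise the C4 methyl groups, differed by -0.11 to -0.08 there, with overlapping arrays. The chosen probe set of Sc5d, which desaturates C5, also overlapped, at -0.08, whereas its other probe set above the floor differed by -0.65 with all mutants below all controls, and the mean over its probe sets gave -0.24.

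A pair of late enzymes had the largest negative E14.5 differences among the enzymes. Hsd17b7, the 3-keto reductase of the pathway, was at 4.81, 5.32, 5.30, 5.54 and 5.50 in mutants, against 5.43, 5.42, 5.85, 5.70 and 5.55 in controls. The difference of -0.29 (SE 0.11, limma, n = 5 and 5, adjusted p = 0.166) did not pass, the mean over its probe sets gave -0.11, and mutant 1 was the lowest array. Sc5d averaged 4.96 in mutants and 5.12 in controls at E14.5, a difference of -0.16 (SE 0.06, limma, n = 5 and 5, adjusted p = 0.211).

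None of the 27 genes passed the test at E13.5, where 0.099% of all tested genes did, and none passed at E14.5, where 2.63% did (1.48% higher and 1.15% lower). At an unadjusted p under 0.05 there were 7 genes at E13.5 (9.54% of all genes) and 7 at E14.5 (17.3%). With each array centred on the median of its tested genes, the E13.5 count at that level was 2 of 27, against 888 of the 11116. At E13.5 25 of the 27 mutant means lay under the control mean, Ggps1 and Npc2 being the exceptions, but so did 68.5% of all tested genes. The median difference was -0.11 over the 27 genes and -0.04 over all tested genes. With each array centred on the median of its tested genes, 21 of 27 lay under, against 40.8% of all genes, and the medians were -0.04 and 0.02. Centred on all probe sets instead, 27 of 27 lay under, against 80.8%. With the mean over all probe sets of a gene, 24 of 27 lay under, against 6763 of the 11116 tested genes. Fdft1 (0.02), Scap (0.10) and Fdps (0.03) then turned positive at E13.5, while Ggps1 (-0.07) and Npc2 (-0.01) turned negative. That mean includes probe sets under the floor, and in Fdft1, Scap and Fdps only those were higher in mutants. Both Fdft1 probe sets above the floor were lower in mutants, at -0.12 and -0.13. At E14.5 14 of 27 lay under, against 44%, with medians of -0.004 over the 27 genes and 0.015 over all.

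Complete separation of the arrays at E13.5 was seen in 10 genes, all lower in mutants: Hmgcs1, Mvd, Idi1, Fdft1, Sqle, Lss, Nsdhl, Ebp, Dhcr7 and Srebf2. Over all tested genes the share lower and fully apart was 13.5%, and the share higher and fully apart was 4.32%, where none of the 27 genes lay. After centring on tested genes 6 stayed apart below (Hmgcs1, Mvd, Idi1, Fdft1, Dhcr7 and Srebf2), against 5.44% of all genes. At E14.5 none of the 27 was apart in either direction, against 1.88% below and 2.53% above. Counted by probe set, 50 of the 62 probe sets of these genes passed the floor. Of the 50, 44 lay under the controls at E13.5 and 17 were fully apart below, against 66.2% and 12.5% of all such probe sets. At E14.5 29 lay under (45% of all) and 1 was apart below (1.6%).

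**Figure D2:**
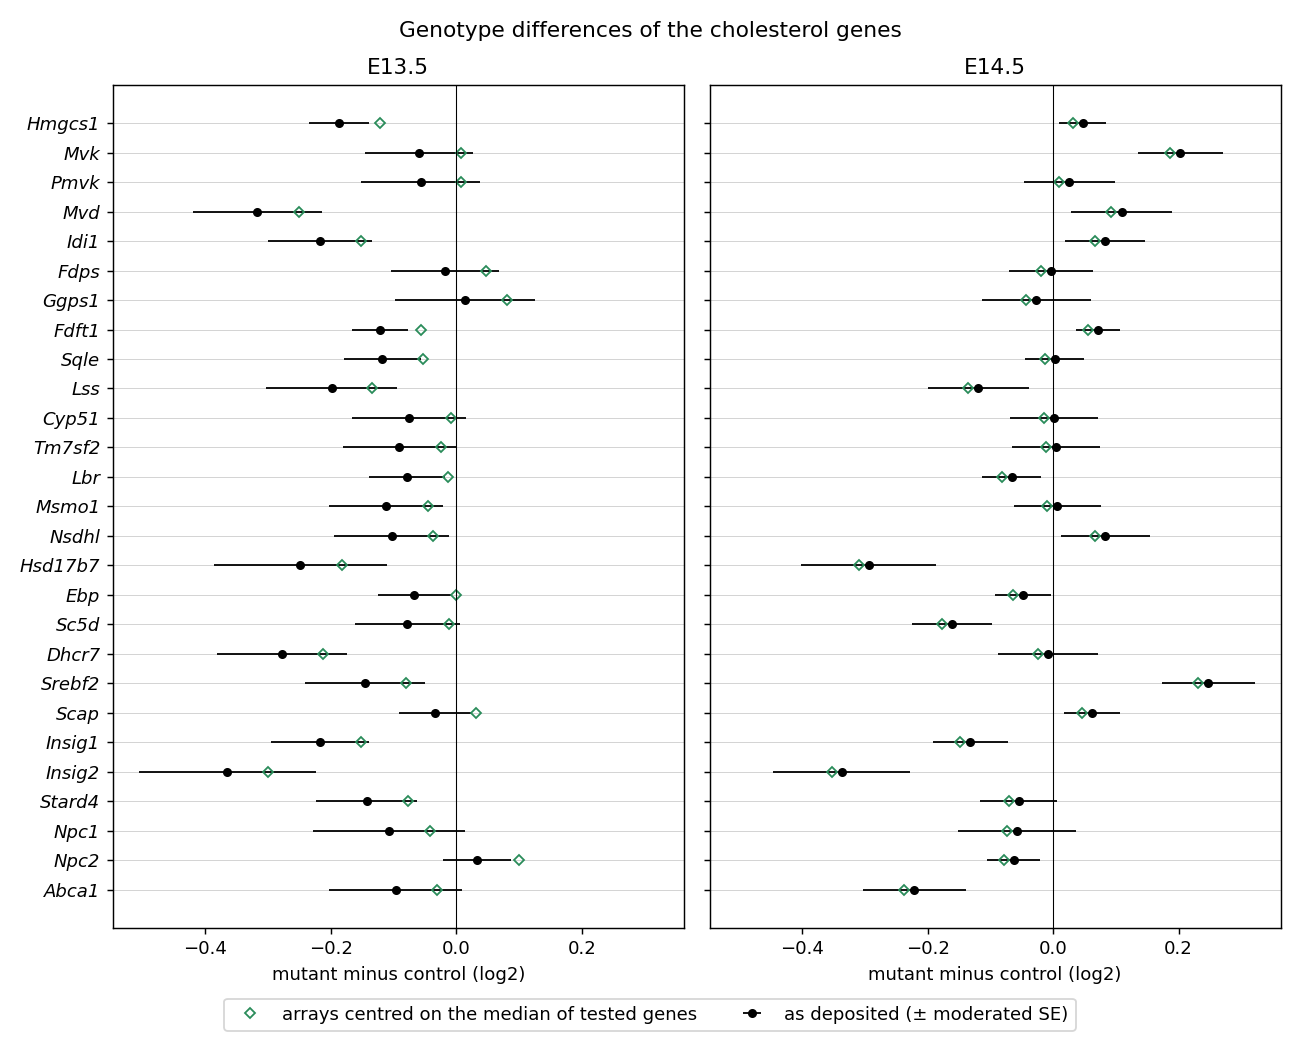
Mutant minus control (log2) for each gene at E13.5 and E14.5. Black points with bars are the deposited values with the moderated standard error, and open diamonds the same difference after centring each array on the median of its tested genes. At E13.5 25 of 27 black points and 21 of 27 diamonds lie below 0, and at E14.5 the points scatter about 0, from -0.34 for Insig2 to 0.25 for Srebf2.

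Other measures also differed in mean between genotypes at E13.5, though the arrays overlapped for beta-actin and for cartilage. Medians over all probe sets of an array were higher in mutants (3.42 to 3.44) than in controls (3.39 to 3.404), whereas medians over tested genes were lower in mutants (6.58 to 6.65) than in controls (6.66 to 6.70). The beta-actin 5′ signal less its 3′ signal, a sign of RNA integrity, ran from -1.06 to -0.98 in mutants and from -1.34 to -1.02 in controls. Of 15 mesenchyme markers 14 were tested, and they averaged between 8.86 and 8.97 on mutant arrays, against 9.02 to 9.14 on control arrays. The 11 skeletal muscle genes, all tested, averaged between 7.12 and 7.50 on mutant arrays, against 6.58 to 6.83 on control arrays. Of 8 bone genes 6 were tested and averaged 4.57 to 5.11 on mutant arrays, against 5.37 to 5.67 on control arrays, and all 6 had a mutant mean under the control mean. Of 9 cartilage genes 5 were tested and averaged 6.10 to 6.58 on mutant arrays, against 5.22 to 6.30 on control arrays. At E14.5 12 of 13 epithelial genes were tested and averaged between 7.70 and 7.93 on mutant arrays, against 7.31 to 7.46 on control arrays, and 7 of the 12 were called higher. The bone genes were lower in mutants at that stage too, at 7.46 to 8.27, against 8.18 to 8.70 in controls. These arrays are of bulk RNA, so fewer cells of a type and less RNA per cell cannot be told apart, and the part of these shifts in the cholesterol genes was not tested. With the beta-actin signal as a term, 25 of 27 genes lay under the controls at E13.5, against 7194 of the 11116 tested genes.

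The mean over the 19 enzymes, taken on each array relative to the stage's control mean, put the levels side by side. At E13.5 it was -0.15, -0.07 and -0.16 in mutants, against -0.05, 0.01 and 0.04 in controls. At E14.5 it was -0.08, -0.03, 0.03, 0.01 and 0.04 in mutants, against -0.10, -0.06, 0.09, 0.04 and 0.04 in controls. As deposited, the E13.5 genotypes did not overlap. Centred on tested genes, the E13.5 means were -0.12, -0.02 and -0.05 in mutants, against -0.03, -0.01 and 0.03 in controls, and mutant 2 then lay above control 1. The E14.5 arrays divided by batch instead, with all 4 arrays of batch 1 below all 6 arrays of batch 2. Within batch 1 the means were -0.05 in mutants and -0.08 in controls, and within batch 2 they were 0.03 in mutants and 0.05 in controls.

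**Figure D3:**
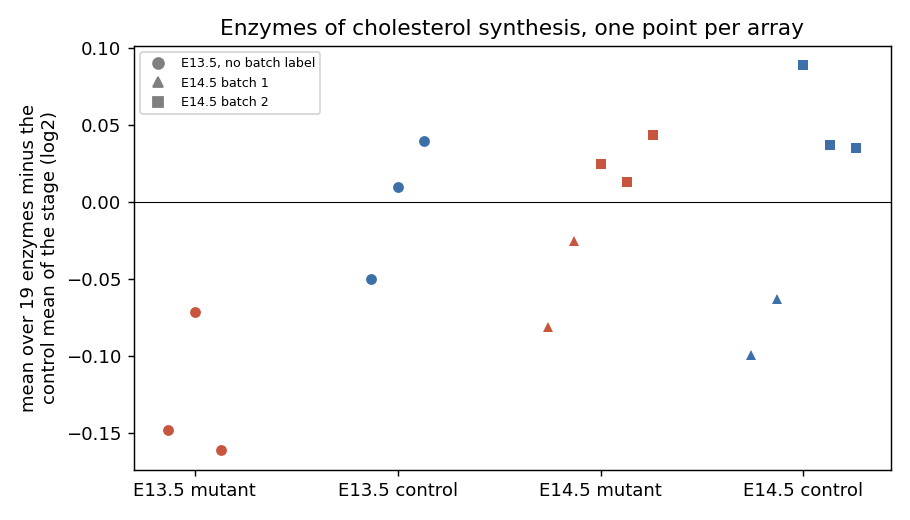
Mean over the 19 enzymes on each array, as deposited, less the control mean of the stage (vertical axis, log2). Circles are E13.5 arrays, triangles E14.5 batch 1 and squares E14.5 batch 2, with mutants in red and controls in blue. The E13.5 mutants lie below the E13.5 controls (after centring on tested genes, not drawn, mutant 2 at -0.02 lies above control 1 at -0.03), and at E14.5 the batches rather than the genotypes are apart.

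Among the genes that control SREBP2, Insig2 had the largest genotype difference of the 27 genes at both stages, by the chosen probe sets. With the mean over probe sets it stayed the largest at E14.5 (-0.30). At E13.5 that mean put Insig2 (-0.20) behind Idi1 (-0.30), Dhcr7 (-0.28), Sc5d (-0.24), Stard4 (-0.22) and Insig1 (-0.22). INSIG2 retains the SCAP-SREBP2 complex in the endoplasmic reticulum. At E13.5 Insig2 stood at 5.69, 6.20 and 5.97 in mutants, against 6.38, 6.39 and 6.19 in controls, so that the highest mutant array just exceeded the lowest control array. The difference was -0.37 (SE 0.14, limma, n = 3 and 3, adjusted p = 0.437), a fold of 0.776. At E14.5 Insig2 stood at 6.92, 7.30, 7.05, 7.03 and 6.75 in mutants, against 7.23, 7.52, 7.17, 7.51 and 7.30 in controls. Mutant 2 alone reached into the range of the controls. The E14.5 difference was -0.34 (SE 0.11, limma, n = 5 and 5, adjusted p = 0.122), with -0.26 in batch 1 and -0.39 in batch 2.

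All 3 probe sets of Insig2 were lower in mutants at both stages. The second was at 6.50, 6.52 and 6.62 in E13.5 mutants, against 6.67, 6.70 and 6.67 in E13.5 controls. At E14.5 the same probe set was at 6.62, 6.74, 6.69, 6.51 and 6.65 in mutants, against 6.75, 6.94, 6.81, 6.89 and 6.83 in controls. It was the one probe set of the 50 whose genotypes were fully apart at both stages. Of all such probe sets, 12.5% were apart below at E13.5 and 1.6% at E14.5. The share of all probe sets apart at both stages is not given here, so this count has no background. The third differed by -0.11 at E13.5 and -0.35 at E14.5. With the mean over the 3 probe sets in place of the highest, Insig2 fell by 0.30 on the log2 scale at E14.5 and passed the test (limma, n = 5 and 5, adjusted p = 0.0357). At E13.5 the mean over the 3 gave -0.20 (limma, n = 3 and 3, adjusted p = 0.528). With a high or low Xist class as a term the chosen probe set gave, at E14.5, -0.41 (limma, n = 5 and 5, adjusted p = 0.1).

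INSIG1, which like INSIG2 holds SCAP back, is itself a target of SREBP2. Insig1 stood at 7.01, 7.39 and 7.15 in E13.5 mutants, against 7.35, 7.43 and 7.41 in E13.5 controls, a difference of -0.22 (SE 0.08, limma, n = 3 and 3, adjusted p = 0.411). At E14.5 it differed by -0.13 (SE 0.06, limma, n = 5 and 5, adjusted p = 0.28), by -0.14 in batch 1 and -0.13 in batch 2. Scap, the sterol sensor that escorts SREBP2, differed by -0.03 at E13.5 and 0.06 at E14.5.

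Srebf2, the gene of SREBP2, had opposite signs at the stages. It stood at 6.825, 6.69 and 6.72 in E13.5 mutants, against 6.834, 6.90 and 6.94 in E13.5 controls, so the genotypes were apart by a thin margin. The difference was -0.15 (SE 0.10, limma, n = 3 and 3, adjusted p = 0.664). At E14.5 it stood at 4.69, 4.66, 4.44, 4.64 and 4.54 in mutants, against 4.18, 4.23, 4.41, 4.30 and 4.61 in controls. These values lay near the floor of log2 4. Control 5 was the only control within the range of the mutants. The E14.5 difference of 0.25 (SE 0.07, limma, n = 5 and 5, adjusted p = 0.0946) did not pass. It was 0.47 within batch 1 (limma, n = 2 and 2, adjusted p = 0.0443) and 0.10 within batch 2 (limma, n = 3 and 3, adjusted p = 0.671). Without control 5 it was 0.31 (limma, n = 5 and 4, adjusted p = 0.0226), but leaving out the highest control was bound to widen the difference. Control 5 had the lowest beta-actin 5′ minus 3′ signal at E14.5, -1.61, against -1.26 to -1.06 in the other controls. The second probe set of Srebf2 did not share the E14.5 direction, at 3.62 ± 0.10 in mutants and 3.72 ± 0.35 in controls (SD, n = 5 each), and the mean over both gave 0.07 (limma, n = 5 and 5, adjusted p = 0.781). That opposite direction rested on control 5, at 4.29, with the other controls at 3.48, 3.61, 3.785 and 3.44. Apart from control 5, all E14.5 arrays lay under log2 4 on this probe set.

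**Figure D4:**
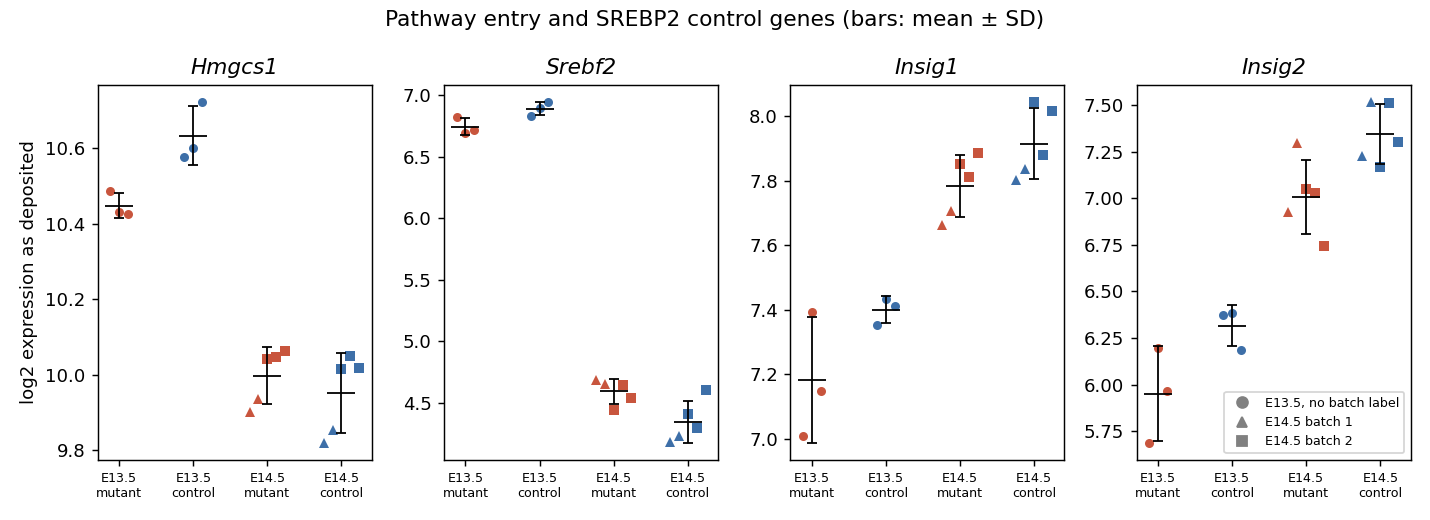
Deposited log2 expression (vertical axis, a separate range in each panel) of Hmgcs1, Srebf2, Insig1 and Insig2 on each array. Red marks mutants, blue controls, circles E13.5, triangles E14.5 batch 1 and squares E14.5 batch 2, and black bars the mean ± SD of 3 or 5 arrays. Insig2 means are lower in mutants at both stages, whereas Srebf2 is lower in mutants at E13.5 and higher in mutants at E14.5.

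None of the transport and efflux genes passed the test at either stage. Stard4, a carrier of sterols between membranes, differed by -0.14 at E13.5 and -0.05 at E14.5. Npc1 and Npc2, which export cholesterol from the lysosome, differed by -0.11 and 0.03 at E13.5 and by -0.06 each at E14.5. ABCA1 moves cholesterol out of the cell and is induced by sterols through LXR receptors. At E14.5 Abca1 stood at 7.80, 7.94, 7.91, 8.05 and 7.98 in mutants, against 8.30, 8.23, 8.25, 7.93 and 8.07 in controls. The difference was -0.22 (SE 0.08, limma, n = 5 and 5, adjusted p = 0.177), with -0.40 in batch 1 and -0.11 in batch 2, and control 4 lay within the range of the mutants.

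Whether the genotype difference itself changed between the stages was tested directly. None of the 27 genes passed, as against 0.117% of all tested genes, and 6 had an unadjusted p under 0.05, against 10.4%. Those 6 were Hmgcs1, Mvk, Mvd, Idi1, Fdft1 and Srebf2, all with a larger mutant-minus-control value at E14.5 than at E13.5 (Mvk by 0.26, Idi1 by 0.30 and Fdft1 by 0.19). The change was 0.23 for Hmgcs1 (SE 0.06, limma, 16 arrays, adjusted p = 0.189) and 0.43 for Mvd (SE 0.13, limma, 16 arrays, adjusted p = 0.283). For Srebf2 it was 0.39 (SE 0.12, limma, 16 arrays, adjusted p = 0.284) and for Insig2 0.03 (SE 0.18, limma, 16 arrays, adjusted p = 0.964). All Mvd values at E14.5 lay under log2 4. With the mean over a gene's probe sets, 1 of the 27 had an unadjusted p under 0.05, against 1136 of 11116 genes. The change was then 0.10 for Hmgcs1, 0.14 for Mvk, 0.23 for Mvd, 0.03 for Fdft1 and 0.13 for Srebf2, but 0.32 for Idi1. With the chosen probe sets as deposited, the median was 0.09 over the 27 genes and 0.06 over all tested genes. Of the 27, 5 lay under 0, against 30.2% of all genes. Centred on tested genes, the medians were 0.004 over the 27 genes and -0.02 over all, and 12 of the 27 lay under 0, against 57%. After that centring 4 of the 27 had an unadjusted p under 0.05, against 1016 of the 11116 genes.

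Sex was not given by the labels. Xist was high on all 6 E13.5 arrays and, at E14.5, on mutants 1, 2 and 3 and control 4, and low on the others. Since an array may pool embryos, high Xist shows only that female tissue is present. Ebp and Nsdhl lie on the X chromosome. At E14.5 they differed by -0.05 and 0.08, and with the Xist class (high or low) as a term by -0.06 and 0.02.

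Differences between the stages carry the shift in the deposited scale: array medians over all probe sets lay between 1.63 and 1.66 at E14.5, against 3.39 to 3.44 at E13.5. Whether both stages were run and normalised together is not stated in the sources used here. Development and array processing therefore cannot be told apart in any stage contrast, and the p-values do not separate them. As deposited, 20 of the 27 genes were called between E14.5 and E13.5 in mutants (2 higher, 18 lower), and 21 in controls (2 higher, 19 lower), against 85.4% and 86.5% of all genes. The shares of all genes called higher and lower were 13.4% and 72% in mutants and 11.6% and 74.9% in controls. Directions of the 27 genes turned with the scale: centred on tested genes 12 were called higher and 10 lower in mutants, and 12 and 11 in controls. Centred on all probe sets, 23 were called higher and 2 lower in mutants, and 21 and 3 in controls. All tested genes turned likewise. Centred on tested genes, 37.7% of them were called higher and 44.4% lower in mutants, and 38.4% and 43.9% in controls. Centred on all probe sets, the shares were 80.2% and 12% in mutants, and 77.9% and 13.7% in controls. A direction was therefore read where it was called alike as deposited, after both kinds of centring and after quantile normalisation over all arrays. In mutants this left Srebf2 and Tm7sf2 lower and Insig1 and Insig2 higher at E14.5, 7.41% in each direction against 10.7% lower and 13.4% higher of all genes. In controls it left Mvd, Srebf2 and Tm7sf2 lower and Insig1 and Insig2 higher, 11.1% and 7.41% against 11.7% lower and 11.6% higher of all genes. These shares were near or below the background. At E14.5 the values of Mvd and Tm7sf2 lay under the floor of log2 4 on all arrays. Both genes entered the test only through their E13.5 arrays, which favours a call of lower at E14.5. Their falls therefore carry no weight here.

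Srebf2 had the largest fall among the 27 genes, in a contrast where stage and array processing cannot be told apart. Its deposited level averaged 4.59 at E14.5 against 6.75 at E13.5 in mutants, a change of -2.15 (SE 0.09, limma, n = 5 and 3, adjusted p = 3.48e-12), and 4.35 against 6.89 in controls, a change of -2.54 (SE 0.09, limma, n = 5 and 3, adjusted p = 4.94e-13). Centred on all probe sets the change was -0.36 in mutants and -0.80 in controls, and after quantile normalisation -1.49 in mutants and -1.77 in controls, so its size rests on the scale. As deposited its second probe set changed by -2.34 in mutants and -2.21 in controls. Insig1, with a single probe set, rose by 0.60 in mutants (SE 0.07, limma, n = 5 and 3, adjusted p = 1.03e-06) and by 0.52 in controls (SE 0.07, limma, n = 5 and 3, adjusted p = 5.23e-06). The chosen probe set of Insig2 rose by 1.06 in mutants and 1.03 in controls. The other probe sets of Insig2 disagreed with it, with changes of 0.10 and -0.54 in mutants and 0.17 and -0.30 in controls, and the mean over all 3 gave 0.20 in mutants and 0.30 in controls.

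Read against the median of all tested genes, the steps of the pathway did not move as a block between the stages. In controls Srebf2 stood at -1.91 relative to that median, Dhcr7 at -1.14, Sc5d at -1.11 and Sqle at -0.63, whereas Insig1 stood at 1.15 and Insig2 at 1.66. Tm7sf2 (-1.50), Mvd (-1.49) and Mvk (-1.13), with E14.5 values near or under the floor, were low too. The late enzymes Cyp51, Msmo1 and Ebp stood between 0.58 and 0.62 in controls. Of the enzymes named here, only Mvd and Tm7sf2 kept a called direction in every scaling in controls. The rest are positions relative to the median and no more. As deposited, the other Cyp51 probe sets changed by -2.26 and -0.08 in controls, against -0.04 for the chosen one. After quantile normalisation Cyp51 stood at 0.32, Msmo1 at 0.36 and Ebp at 0.47 relative to the median, and Sqle at -1.0.

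**Figure D5:**
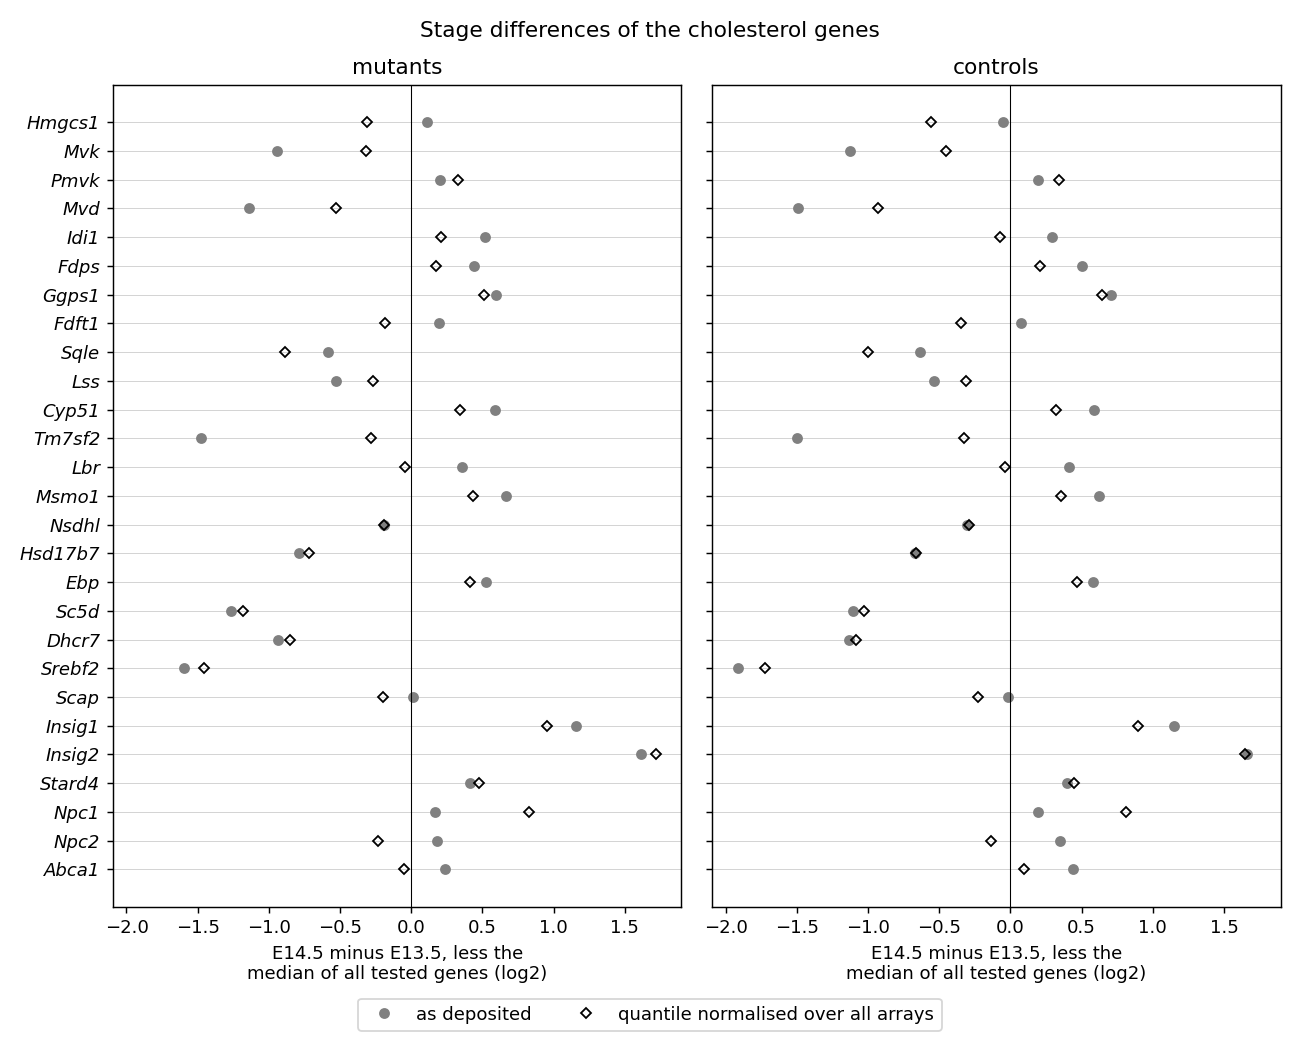
E14.5 minus E13.5 for each gene (horizontal axis, log2), less the median of the same difference over all tested genes, in mutants on the left and controls on the right. Grey points are the deposited values and open diamonds the values after quantile normalisation over all arrays. Srebf2 lies farthest to the left and Insig2 farthest to the right in both genotypes, and Tm7sf2 moves most between the scales.

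Related genes outside the group gave the same count of 0 called at both stages. Of 15 other lipid genes that respond to SREBP factors, 14 lay under the controls at E13.5 (13 after centring on tested genes), with a median of -0.13, and 9 at E14.5. Fasn, the fatty acid synthase, differed by -0.31 (SE 0.10, limma, n = 3 and 3, adjusted p = 0.375) at E13.5, Aacs, the acetoacetyl-CoA synthetase, by -0.33 (SE 0.12, limma, n = 3 and 3, adjusted p = 0.407), and Lpin1, a phosphatidate phosphatase, by -0.64 (SE 0.24, limma, n = 3 and 3, adjusted p = 0.425). Of 10 genes of SREBP processing and degradation 6 lay under at E13.5, and of 7 LXR receptors and efflux genes 3. Of 13 genes of sterol uptake and transfer 12 lay under (6 after centring), of 12 genes of the isoprenoid branch 9 (3 after centring), and of 4 oxysterol enzymes 3. Over all tested genes the shares were 68.5% and, after centring, 40.8%.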

How the data were processed

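RNA from 16 palate samples was measured on one-colour Affymetrix arrays. The authors deposited log2 expression values for 45101 probe sets made with GCRMA, per the submitters' processing notes, and its version is not given in the sources used here. Probe sets annotated to one gene numbered 34958, to several 932 and to none 9211, and no symbol was changed through its Entrez identifier. Genes with at least 3 arrays at log2 4 or above were tested. One limma fit (limma 3.58.1, R 4.3.3) held the 4 groups of stage and genotype and the labelled batch, with Benjamini-Hochberg adjustment over all 11116 genes and a threshold of 0.05, after tests on simulated data. Replicates of one group correlated at 0.993 to 0.997. The number of arrays limits the precision. Other floors, centrings, probe set summaries, variance models and array subsets were tried, and Xist class, beta-actin, muscle-poor controls and quantile normalisation over all arrays were added after seeing the data. Members and gene lists were chosen with earlier results of these data known. All 29 listed genes are named, and from other lists at most 3 genes of smallest p. Promoter windows came from RefSeq (GRCm38.p6). The targeted gene's level is not analysed here.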

Additional observations from a re-analysis of the deposited data

Results flagged for a closer look

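Of 54 groups of 5 arrays examined, 1 held an array set apart from the rest. Stard4 stood at 6.30 (6.302) in E14.5 control 4, and the other E14.5 controls stood at 6.13 to 6.17. Chance sets an array apart in about 1 of 20 such groups.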

How the results depend on the processing

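At E13.5 no gene of the group passed the test under any alternative, and 18 of 27 kept a mutant mean under the control mean in all of them. At E14.5 14 of 27 kept their sign. The count passing at E14.5 became 1 with the mean over a gene's probe sets (Insig2), 1 in batch 1 alone (Srebf2) and 1 with the beta-actin term (Srebf2, 0.26), against 0 otherwise, and leaving out single arrays gave 0 to 1, the 1 being Srebf2 without control 5. Only at the stricter floor, 8 arrays at log2 6, did fewer genes (16 of 27, among 5898) enter: 14 lay under the controls at E13.5 and 9 at E14.5, and 9 were called between stages in mutants and 10 in controls. The shares over the 5898 genes are not given here, so these counts have no background. A replicate block left 0 called at each stage and in the difference, 25 and 14 lower, and 20 stage calls in mutants and 21 in controls. Shares over all genes under that block are not given here either. Same-numbered arrays share only a number: their deviations correlated at -0.17, 0.17 and -0.08 at E13.5, and between -0.45 and 0.03 at E14.5. Values near log2 4 (Mvk, Mvd and Srebf2 at E14.5, Tm7sf2) lie close to or under the floor. Quantile normalisation over all arrays left the group's genotype calls at 0. With it 21 of 27 lay under the controls at E13.5, against 49.1% of all genes, where 25 lay under as deposited. It gave 9 stage calls higher and 14 lower in each genotype, against 2 and 18 in mutants and 2 and 19 in controls as deposited. Between stages it called 36% of all genes higher and 40.7% lower in mutants, and 35.9% and 41.1% in controls. Over all genes it gave 22 higher and 48 lower at E13.5 against 2 and 9 as deposited, and 55 higher and 61 lower at E14.5 against 164 and 128.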
